A study of Mus musculus with 36 samples.

Results

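RNA sequencing of mouse hippocampus was examined for 10 genes that make and load the peptides of MHC class I: Psmb8, Psmb9, Psmb10, Psme1, Psme2, Tap1, Tap2, Tapbp, Erap1 and Nlrc5. They were chosen by symbol for their known role, 10 of the 24421 symbols in the tables, and each was measured in all 4 tables. The choice was made with earlier results of these data known, so shares of all genes set beside them are a description. The series held 36 libraries of polyadenylated RNA in 6 groups of 6, each of 3 females and 3 males. Its title names NF-kB and NLRP3, an inflammatory transcription factor family and an inflammasome sensor, as what was downregulated.

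The aging arm held 3 groups of C57BL/6 mice: old mice of 18 months given a nanoligomer, old controls of 18 months, and young controls of 8 months. The transgenic arm held 3 groups of 4 months: APP/PS1 mice given a nanoligomer, APP/PS1 controls, and non-carrier littermate controls. APP/PS1 mice carry amyloid transgenes. The sources used here do not state the APP/PS1 line and its promoters, the strain of the transgenic arm, what the controls received, or the sequence, dose and duration of the nanoligomer. No label says that the 6 libraries of a group came from separate animals, so p-values measure the spread between these samples, which may be technical. Libraries are named by group, sex (F or M) and labelled number, so old M1 is the old control male numbered 1.

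Treated APP/PS1 F3, with 0.913 M reads, was left out, which leaves 5 libraries in that group and 35 in all, of 27.6 to 46.3 M reads. All 8 markers of hippocampal neurons were detected in every group, and their summed level was lowest in APP/PS1 F1, at 438 counts per M reads (CPM) against a group median of 2425 CPM. That library also had the highest summed level of 5 striatal markers, 1030 CPM against a group median of 84.3 CPM. The highest striatal sums of other groups were 1026 CPM in treated old F3 (group median 73.7), 559 in young M2 (75.4) and 495 in treated APP/PS1 M2 (53.9). They were 238 CPM in old M3 (54.1) and 64.9 CPM in littermate F1 (49.4). Limma, the main test, called none of the 10 genes at an adjusted p under 0.05 in any of the 4 comparisons. DESeq2, a further test, called Psmb8, Psmb9 and Nlrc5 in old against young controls. The values are given as estimates and ranges.

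The proteasome cuts cellular proteins into peptides. Interferon gamma and other inflammatory signals make cells replace its constitutive catalytic subunits Psmb5, Psmb6 and Psmb7 with the inducible Psmb8, Psmb9 and Psmb10, which gives the immunoproteasome, and the PA28 activator built from Psme1 and Psme2 opens its core. The transporter of Tap1 and Tap2 carries peptides into the endoplasmic reticulum, tapasin (Tapbp) holds it next to empty class I molecules, Erap1 trims the peptides there, and Nlrc5 is the transactivator of class I genes.

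By the GENCODE annotation of GRCm38, which is mm10, 4 of the genes lie side by side in the MHC on chromosome 17. Psmb9 (ENSMUSG00000096727.3, chr17:34181987-34187764, minus strand) and Tap1 (ENSMUSG00000037321.17, chr17:34187553-34197225, plus strand) run apart from a shared start region and overlap by 212 bases there. Psmb8 (ENSMUSG00000024338.15, chr17:34197721-34201454, plus strand) begins 495 bases beyond Tap1, and Tap2 (ENSMUSG00000024339.12, chr17:34203527-34216321, plus strand) begins 2072 bases beyond Psmb8. Tapbp (ENSMUSG00000024308.15, chr17:33915899-33929292, plus strand) lies on the same chromosome. Psme1 and Psme2 (ENSMUSG00000022216.17 and ENSMUSG00000079197.10) lie 5911 bases apart on chromosome 14, Erap1 (ENSMUSG00000021583.7) lies on chromosome 13, and Psmb10 (ENSMUSG00000031897.9) and Nlrc5 (ENSMUSG00000074151.13) lie on chromosome 8. All 10 are protein coding, and the tables count each gene as a whole. Psmb8 and Tap2 overlap the antisense gene Gm20496, Psmb10 overlaps Gm16156, Tapbp overlaps Gm19412, Erap1 overlaps Cast, Psme1 overlaps Emc9, Nlrc5 overlaps 9330175E14Rik and Tap2 also overlaps Gm15821, each on the other strand, and Tapbp overlaps Zbtb22 on its own strand. The sources used here do not say whether reads were counted by strand, so reads of such partners cannot be told apart.

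Promoter windows are shown because Psmb9 and Tap1 share a start region and because interferon and NF-kB are known to control the pathway. RefSeq, build GRCm38.p6, gave windows from 250 bases before to 50 after the start for 8 of the 10 genes, all but Tap2 and Nlrc5. These RefSeq starts differ from the GENCODE gene starts above. The windows of Psmb8, Erap1, Psme1 and Tapbp lie wholly inside their GENCODE genes. Psmb9 and Tap1, which overlap by GENCODE, do not overlap by their RefSeq starts. Both strands were searched for 3 motifs: GAAANNGAA, the core bound by interferon regulatory factors, TTCNNNGAA, a gamma-activated site bound by STAT dimers, and the degenerate consensus kB site of NF-kB. Over 32851 windows of the same length, 8.56% held the first, 8.30% the second and 4.51% the third. Capitals mark the matches, which overlap no match of another motif, and positions are counted from 0 at the start. The Psmb8 window (chr17:34197945-34198244, plus strand) holds a gamma-activated site at -97 to -89. Erap1 (chr13:74639603-74639902, plus strand) holds the first motif at -9 to -1 and at -3 to 5, copies that overlap by 3 bases, and Psme1 (chr14:55578244-55578543, plus strand) holds it at 10 to 18, all on the minus strand. The Tap1 window (chr17:34187306-34187605, plus strand) shares 275 bases with that of Psmb9, whose start lies 226 bases away on the other strand, and holds no match. No letters of the 3 motifs were found in the windows of Psmb9, Psmb10, Psme2 or Tapbp either.
Psmb8: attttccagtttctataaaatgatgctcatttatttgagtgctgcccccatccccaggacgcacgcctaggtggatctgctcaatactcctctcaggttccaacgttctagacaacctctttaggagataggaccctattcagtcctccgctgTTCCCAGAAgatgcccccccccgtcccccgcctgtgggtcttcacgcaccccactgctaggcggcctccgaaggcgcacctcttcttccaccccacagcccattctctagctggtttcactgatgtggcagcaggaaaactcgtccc
Erap1: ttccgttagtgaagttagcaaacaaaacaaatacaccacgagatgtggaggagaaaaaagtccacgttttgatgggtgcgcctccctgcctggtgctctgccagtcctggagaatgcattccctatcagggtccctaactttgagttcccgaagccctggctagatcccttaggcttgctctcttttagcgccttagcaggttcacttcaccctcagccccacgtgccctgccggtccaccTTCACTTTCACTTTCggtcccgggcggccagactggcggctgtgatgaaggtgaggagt
Psme1: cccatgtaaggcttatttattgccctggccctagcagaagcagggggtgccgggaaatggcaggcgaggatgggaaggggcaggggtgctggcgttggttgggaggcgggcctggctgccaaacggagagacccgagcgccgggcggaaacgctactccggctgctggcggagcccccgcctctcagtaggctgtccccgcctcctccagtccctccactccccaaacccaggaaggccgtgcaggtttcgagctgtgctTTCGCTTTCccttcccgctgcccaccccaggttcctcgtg
Tap1: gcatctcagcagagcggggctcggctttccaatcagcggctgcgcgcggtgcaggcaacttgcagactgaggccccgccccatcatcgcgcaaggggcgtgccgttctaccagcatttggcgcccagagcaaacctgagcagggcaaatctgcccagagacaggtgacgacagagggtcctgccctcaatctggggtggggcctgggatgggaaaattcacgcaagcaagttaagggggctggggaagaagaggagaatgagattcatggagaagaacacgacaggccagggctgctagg

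The 10 genes covered a wide range of levels. Levels were taken as reads per kilobase of all annotated exons, merged over transcripts, per M reads (RPKM). Averaged over 35 libraries, Psmb10 was highest at 14.7, followed by Psme1 at 12.2, Tapbp at 10.5 and Psme2 at 8.09. Tap2 averaged 3.65 RPKM, Erap1 1.15, Psmb8 1.08 and Tap1 1.04, and Psmb9 (0.462) and Nlrc5 (0.215) were lowest. The abundant genes were the steady ones: the highest library was 1.67 times the lowest for Psmb10, 1.78 times for Psme1 and 1.90 times for Psme2. Erap1, close to Psmb8 and Tap1 in level, ranged 2.62 times and Tap2 3.96 times. The other scarce genes ranged more widely, 14.6 times for Psmb8, 18.5 times for Psmb9, 18.9 times for Tap1 and 135 times for Nlrc5. Old M1 was the highest library for each of these 4 genes. The lowest library for Nlrc5 was littermate F1, with 5 reads.

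**Figure D1:**
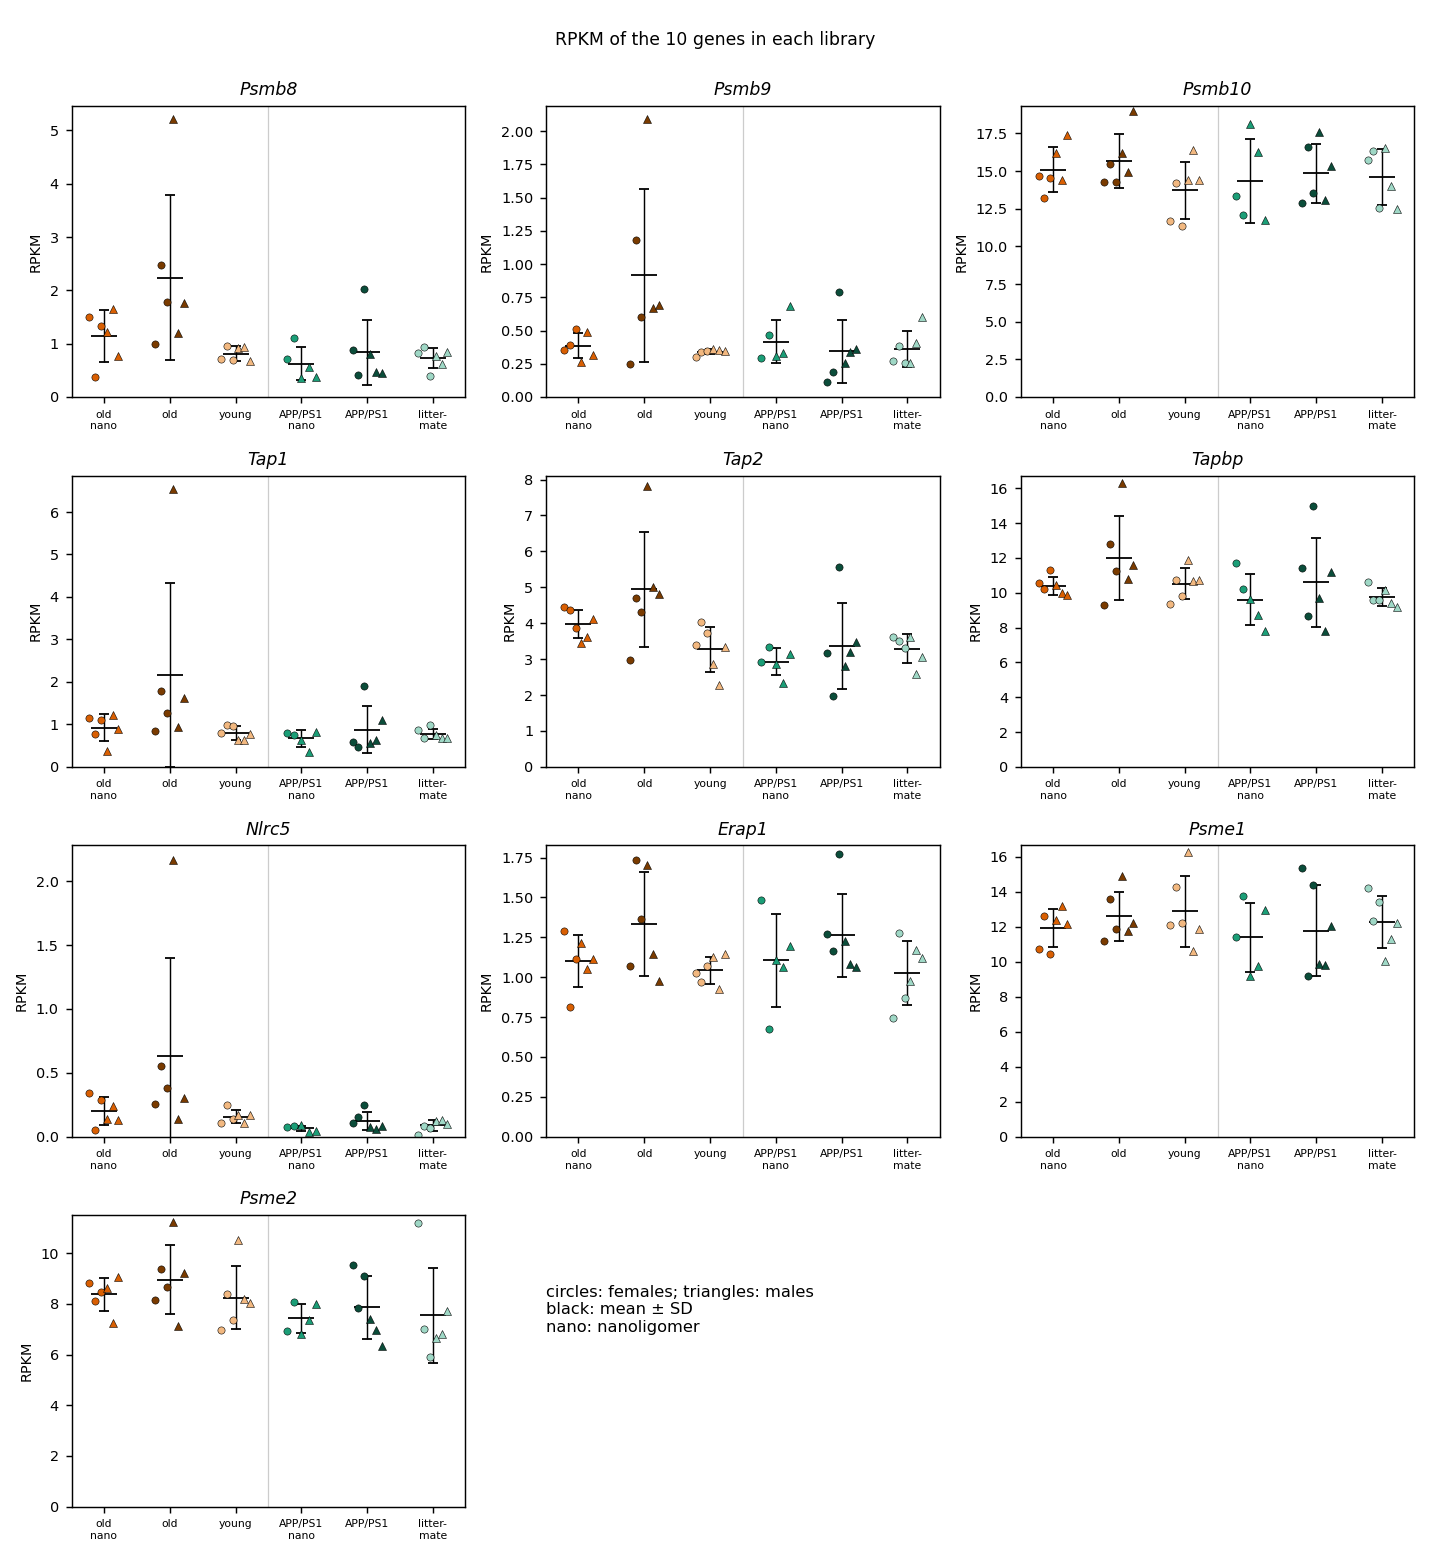
RPKM of each gene in each of 35 libraries, by group (circles females, triangles males, black bars mean ± SD). Old M1 reaches 5.21 RPKM for Psmb8, 6.53 for Tap1 and 2.17 for Nlrc5, the highest of all libraries, while Psmb10 stays between 11.4 and 18.95 RPKM.

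Psmb8 averaged 1.14 ± 0.483 RPKM in treated old, 2.24 ± 1.55 in old control and 0.814 ± 0.134 in young libraries (SD, n = 6 each). It averaged 0.623 ± 0.308 RPKM in treated APP/PS1 libraries (SD, n = 5), 0.837 ± 0.613 in APP/PS1 control and 0.731 ± 0.195 in littermate libraries (SD, n = 6 each). The old controls had the highest mean, but no group differed from its neighbour in the order by more than the larger SD of the pair. Psmb9 averaged 0.387 ± 0.0964 RPKM in treated old, 0.915 ± 0.65 in old control and 0.342 ± 0.0211 in young libraries. It averaged 0.417 ± 0.163 RPKM in treated APP/PS1, 0.343 ± 0.239 in APP/PS1 control and 0.363 ± 0.135 in littermate libraries. Old controls were again highest, and the other 5 means lay within 0.342 to 0.417 RPKM.

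Tap1 averaged 0.925 ± 0.318 RPKM in treated old, 2.16 ± 2.17 in old control and 0.797 ± 0.154 in young libraries, and 0.668 ± 0.193 in treated APP/PS1, 0.875 ± 0.552 in APP/PS1 control and 0.773 ± 0.128 in littermate libraries. Nlrc5 averaged 0.199 ± 0.109 RPKM in treated old, 0.634 ± 0.763 in old control and 0.157 ± 0.0532 in young libraries, and 0.0648 ± 0.0227 in treated APP/PS1, 0.124 ± 0.0694 in APP/PS1 control and 0.0880 ± 0.0426 in littermate libraries. The 3 groups of the aging arm held the 3 highest Nlrc5 means. Psmb10 differed little between groups, with means from 13.7 RPKM in young to 15.7 RPKM in old control libraries and SDs of 1.49 to 2.79. The spread of the old controls was itself large for some of the scarce genes. The SD was 69.0% of the mean for Psmb8, 71.0% for Psmb9, 100.3% for Tap1 and 120.5% for Nlrc5. In young libraries it was 16.5%, 6.17%, 19.3% and 33.9%. For Erap1 it was 24.4% in old control and 8.22% in young libraries.

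Old controls showed higher estimates than young controls for 9 of the 10 genes (median log2 fold change 0.45), against 48.6% of the 16626 genes tested with a positive estimate and a median of -0.0039. The comparison sets 18 against 8 months of age. Nlrc5, Psmb8, Psmb9 and Tap1 had the largest estimates, 2.74-fold, 2.39-fold, 2.19-fold and 2.095-fold, and the PA28 genes had the smallest. Limma called 0 of the 10 genes after Benjamini-Hochberg adjustment over all genes (0.0361% of all genes called). At an unadjusted p under 0.05, 7 of the 10 were higher, against 3.37% of all genes. The 10 were chosen with earlier results of these data known, so these shares are a description. EdgeR called 0 of them (0.0361% of all genes). DESeq2 called 3, all higher, against 0.589% of all genes called higher: Psmb8 (adjusted p = 0.00549), Nlrc5 (adjusted p = 0.0409) and Psmb9 (adjusted p = 0.0428).

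Psmb8, which takes the chymotrypsin-like position of the immunoproteasome, had 135, 244 and 705 normalized counts (lowest, median and highest library) in old controls and 91.4, 107 and 131 in young controls. Every old library lay above every young one, which held for 0.403% of all genes and for no other of the 10. The log2 fold change was 1.26 ± 0.32 (SE, 95% limits 0.56 to 1.95, limma adjusted p = 0.359). Without old M1 it was 0.97 ± 0.227 with limma (adjusted p = 0.418), and DESeq2 still called it (adjusted p = 0.00936).

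Psmb9, at the inducible caspase-like position, had 36.6, 102 and 306 normalized counts in old controls and 44.9, 50.3 and 54.1 in young controls. Of the 6 old libraries 5 lay above all young ones and old F1 lay below them. Its log2 fold change was 1.13 ± 0.37 (limma adjusted p = 0.65), and 0.86 ± 0.316 without old M1. Psmb10, the remaining inducible subunit, had 979, 1051 and 1310 normalized counts in old and 784, 945 and 1157 in young controls. The groups overlapped, and its log2 fold change was 0.21 ± 0.0815 (limma adjusted p = 0.722).

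Psme1, the alpha subunit of PA28, had 996, 1086 and 1319 normalized counts in old and 974, 1090 and 1356 in young controls (log2 fold change -0.01 ± 0.0932, 95% limits -0.21 to 0.19). Psme2, its beta subunit, had 519.6, 639.8 and 791 in old and 499.5, 581 and 699 in young controls (log2 fold change 0.13 ± 0.103, 95% limits -0.09 to 0.36). The groups overlapped over most of their range for both, and without old M1 the log2 fold changes were -0.061 for Psme1 and 0.077 for Psme2.

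Tap1, a chain of the peptide transporter, had 184, 321 and 1430 normalized counts in old and 131, 174 and 216 in young controls. The 4 highest old libraries lay above all young ones, and old M1 alone passed 391. The log2 fold change was 1.07 ± 0.406 (limma adjusted p = 0.71), and 0.65 ± 0.209 without old M1. Its partner Tap2 had 453, 723 and 1181 normalized counts in old and 357, 515 and 608 in young controls, with 5 old libraries above all young ones (log2 fold change 0.57 ± 0.202, limma adjusted p = 0.665). Tapbp, tapasin, had 1360, 1684 and 2364 in old and 1382, 1560 and 1623 in young controls (log2 fold change 0.185 ± 0.0983, limma adjusted p = 0.851, and 0.105 ± 0.0772 without old M1).

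Erap1, the trimming peptidase, had 288, 375 and 503 normalized counts in old and 279.7, 306 and 335 in young controls, with 4 old libraries above all young ones (log2 fold change 0.33 ± 0.144, limma adjusted p = 0.798). Nlrc5, the transactivator, had 48.0, 119 and 735 in old and 36.4, 51.8 and 84.3 in young controls. Of the old libraries 5 lay above all young ones and old M2 lay within their range. Its log2 fold change was 1.46 ± 0.526 (limma adjusted p = 0.669), and 0.94 ± 0.314 without old M1. Old M1 was the highest old library for 8 of the 10 genes. Without it limma called 0 of them (0.0301% of all genes) and 6 were higher at an unadjusted p under 0.05, against 3.14% of all genes. DESeq2 without it called Psmb8 alone of the 10, against 0.391% of all genes called higher, with adjusted p = 0.154 for Psmb9 and adjusted p = 0.17 for Nlrc5.

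**Figure D2:**
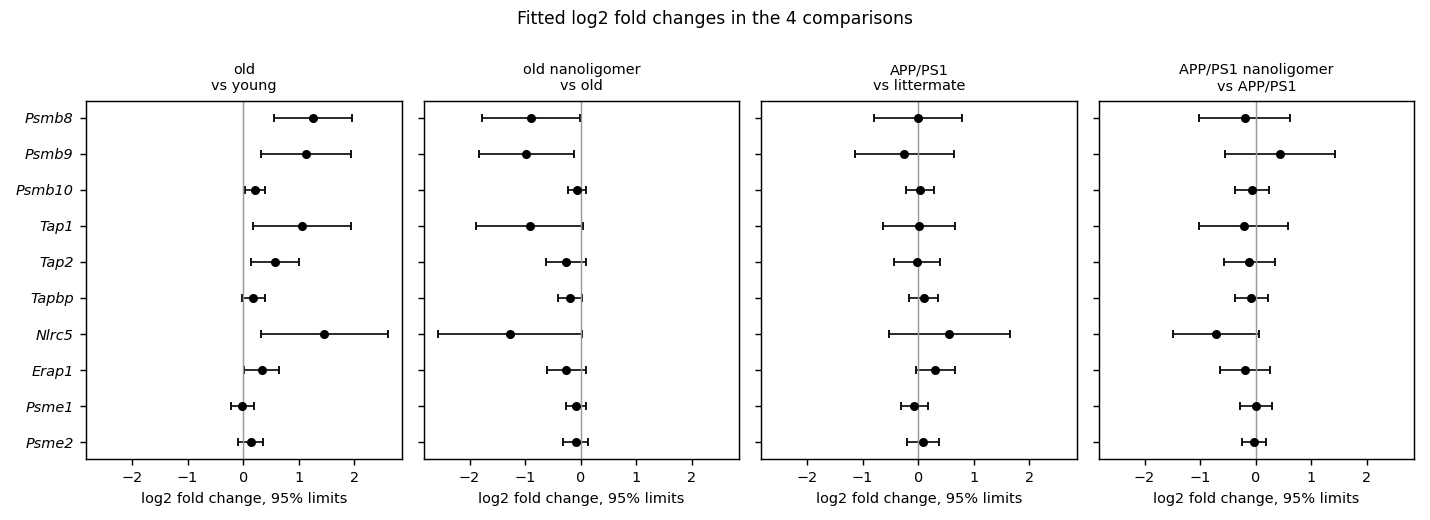
Fitted log2 fold change of each gene with 95% limits in the 4 comparisons, from limma. The limits lie above 0 for 7 genes in old against young controls and below 0 for Psmb8 and Psmb9 in treated old mice against old controls, none of them passing the adjusted test, and include 0 for all 10 genes in the transgenic arm.

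Other genes of the pathway were read from lists by role. All 9 genes of the class I heavy chains and B2m had positive estimates (median log2 fold change 0.75), and 8 of them passed at an unadjusted p under 0.05 while limma called 0. Over the 35 libraries H2-Q7 had 3 to 140 reads and H2-Q6 had 0 to 94, close copies among which reads may be split. The log2 fold changes were 2.15 ± 0.467 for H2-Q7 and 1.73 ± 0.336 for H2-Q6. They were 0.94 ± 0.216 for H2-K1, 0.75 ± 0.167 for H2-D1 and 0.74 ± 0.163 for B2m, the shared light chain (adjusted p = 0.202 to 0.28 for the 5 genes, limma). Of 12 genes of interferon receptors, JAK, STAT and IRF, 8 had positive estimates and 2 passed unadjusted, Stat2 among them at 0.27 ± 0.123, and Irf1, an interferon-induced factor, was at 0.47 ± 0.332.

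The constitutive catalytic subunits had log2 fold changes of 0.10 ± 0.0531 for Psmb5, 0.02 ± 0.0496 for Psmb6 and -0.06 ± 0.0551 for Psmb7. Of the 11 other core subunits 6 had positive estimates (median 0.01), with Psma7 at 0.09 and Psma2 at -0.06, and of the 18 subunits of the 19S regulatory particle 11 did (median 0.01), with Adrm1 and Psmd13 at 0.08 each. In neither list did a gene pass unadjusted. Among 8 assembly factors and regulators 4 were positive and Psmg4, an assembly chaperone, alone passed unadjusted, at 0.46 ± 0.125 (limma adjusted p = 0.429), with the maturation factor Pomp at 0.14. Of 5 other loading and quality control genes 1 was positive, with Pdia3 at -0.12 and Uggt1 at -0.09. Of 6 other peptidases 2 were positive, with Npepps, which passed unadjusted, at -0.13 ± 0.0458 and Lap3 at 0.16. Of the 6 partners that bind class I promoters with Nlrc5, 2 were positive, with Nfya at -0.15 and Nfyb at 0.12.

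The ratio to the constitutive partner is one of RPKM, with length taken as all annotated exons of a gene, merged over transcripts. That length was 3381 bases for Psmb8 against 899 for Psmb5, and 3660 for Psmb9 against 1872 for Psmb6. It was 1705 bases for Psmb10 against 3421 for Psmb7. The ratios depend on these annotated lengths and need not be ratios of transcripts. Psmb8 RPKM was 2.27% ± 0.944 of Psmb5 RPKM in treated old, 4.15% ± 2.79 in old control and 1.61% ± 0.261 in young libraries (SD, n = 6 each). Psmb9 was 0.869% ± 0.235 of Psmb6 in treated old, 2.06% ± 1.44 in old control and 0.781% ± 0.0643 in young libraries. On this scale Psmb10 stood close to its partner Psmb7, at 98.4% ± 9.51 in treated old, 113% ± 18.7 in old control and 93.5% ± 15.9 in young libraries. In reads, Psmb10 had 568 to 1354 and Psmb7 had 1264 to 2470 over the 35 libraries. In the transgenic arm Psmb8 was 1.29% ± 0.535 of Psmb5 in treated APP/PS1 (n = 5), 1.95% ± 1.40 in APP/PS1 control and 1.64% ± 0.558 in littermate libraries (n = 6 each).

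**Figure D3:**
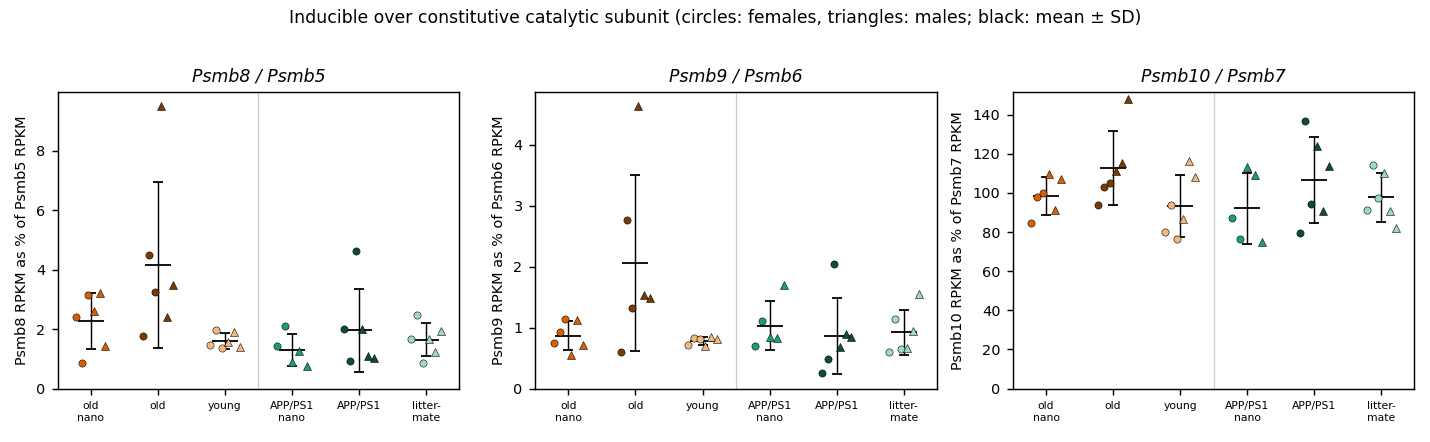
RPKM of each inducible catalytic subunit as a percentage of the RPKM of its constitutive partner, per library and group (circles females, triangles males, black bars mean ± SD). Psmb8 and Psmb9 reach 9.52% and 4.64% of their partners in old M1, while Psmb10 lies between 74.8% and 148% of Psmb7 in all libraries.

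Cell type markers moved beside these values. In bulk tissue, more cells of a type and more RNA per cell cannot be told apart. All 8 microglial markers had positive estimates in old controls (median log2 fold change 0.31, 5 unadjusted), and they summed to 340.2 to 469 CPM in old against 293 to 346 CPM in young controls, with none at 0. All 5 choroid plexus markers had negative estimates (median -1.99), with sums of 20.9 to 234 CPM in old against 12.2 to 4032 CPM in young controls. The 4 tested markers of blood monocytes and neutrophils were positive (median 1.22), with sums of 0.978 to 11.5 CPM in old against 0.150 to 11.7 CPM in young controls. Of 6 endothelial markers 5 were positive (median 0.06), with sums of 205 to 319 CPM in old against 201 to 243 CPM in young controls. All 8 markers of hippocampal neurons were positive (median 0.37, 0 unadjusted), with sums of 2262 to 2817 CPM in old against 745 to 2534 CPM in young controls. All 5 striatal markers were negative (median -0.55, 0 unadjusted), with sums of 49.4 to 238 CPM in old against 45.65 to 559 CPM in young controls. The part of these markers in the results was not tested.

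The 10 markers of T and NK cells summed to 0.966 to 9.31 CPM in old against 0.379 to 22.3 CPM in young controls. In 5 of the 6 groups the library with the highest sum was also the one with the most striatal markers. Only 1 of the 10 markers, Cd4, had enough counts to be tested in old against young controls, with a log2 fold change of -0.08. Cd4 was left aside after its values were seen. The other 9 markers, too low to be tested there, summed to 10, 24.5 and 115 reads (lowest, median and highest library) in old controls. They summed to 5, 11 and 16 reads in young controls, where Cd3d was at 0 throughout. These reads were not scaled for depth. Old M1 and old F2 held the most, 115 and 74 reads, and these were also the highest old libraries for Psmb8, Psmb9, Tap1 and Nlrc5. Old M1 held 23 reads of Cd3e, 32 of Cd8a and 28 of Nkg7, and Ifng, the gene of interferon gamma, was at 0 there. The part of T and NK cells in the results was not tested.

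**Figure D4:**
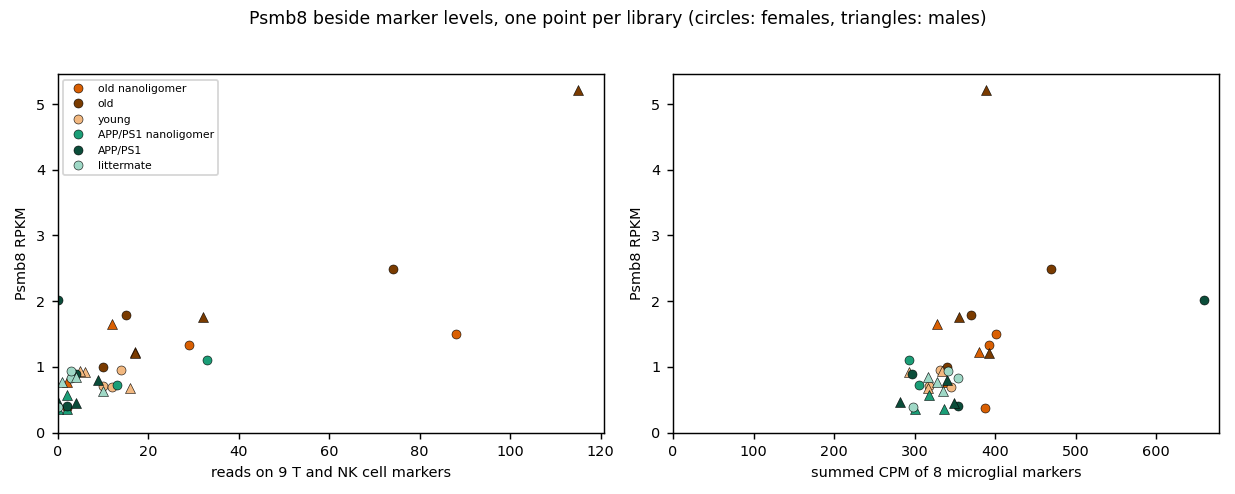
Psmb8 RPKM of each of 35 libraries against reads on 9 T and NK cell markers (left) and against the summed CPM of 8 microglial markers (right). Old M1 and old F2 hold 115 and 74 marker reads with 5.21 and 2.48 RPKM, treated old F1 holds 88 reads with 1.50 RPKM, and APP/PS1 F3 holds 0 reads and 659.5 CPM of microglial markers with 2.02 RPKM.

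Treated old mice showed lower estimates than old controls for all 10 genes (median log2 fold change -0.26), against 49% of the 16517 genes tested with a positive estimate. The comparison sets nanoligomer against control at 18 months. It shares all 6 old controls with the comparison of age, old M1 included, so the directions of the comparisons are not independent. Limma called 0 of the 10 genes and 0% of all genes, edgeR 0 and 0%, and DESeq2 0 of the 10 and 0.0121% of all genes. At an unadjusted p under 0.05, 2 of the 10 were lower with limma, Psmb8 and Psmb9, against 3.6% of all genes. EdgeR gave 4 lower at that level, against 3.38% of all genes, and DESeq2 the same 4, Psmb8, Psmb9, Tap1 and Nlrc5, against 4.02% of all genes. Without old M1 none of the 10 passed unadjusted with limma (5.27% of all genes), and the same held without old F2 (5.46%), treated old M1 (5.12%) or treated old M3 (5.99%).

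Psmb9 had 36.2, 51.6 and 67.9 normalized counts in treated old mice, against 34.2, 95.2 and 286 in old controls of the same table, which was scaled on its own. All treated libraries lay within the range of the controls. A log2 fold change of -0.98 ± 0.398 (95% limits -1.84 to -0.12, limma adjusted p = 0.678) was fitted, and -0.69 ± 0.348 without old M1.

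Psmb8 had 47.9, 160.3 and 212 normalized counts in treated old mice and 126, 228 and 658 in old controls. Treated F2 and M3 lay below all controls, and the other 4 within their range. Its log2 fold change was -0.90 ± 0.407 (limma adjusted p = 0.678), and -0.63 ± 0.371 without old M1. Psmb10, Psme1 and Psme2 had log2 fold changes of -0.06 ± 0.074, -0.08 ± 0.0811 and -0.09 ± 0.103. Without old M1 those of Psme1 and Psme2 were -0.045 and -0.021.

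Tap1 had 77.3, 205 and 254 normalized counts in treated old mice and 172, 299.7 and 1336 in old controls. Treated F2 and M1 lay below all controls. Its log2 fold change was -0.92 ± 0.444 (limma adjusted p = 0.678), and -0.50 ± 0.304 without old M1. Tap2 had 495, 564 and 636 in treated old mice and 424, 675 and 1104 in old controls (log2 fold change -0.26 ± 0.169). Tapbp had 1368, 1418 and 1488 in treated old mice and 1272, 1573 and 2209 in old controls (log2 fold change -0.19 ± 0.104). For both, the treated group lay inside the range of the controls, and without old M1 the log2 fold changes were -0.13 ± 0.139 for Tap2 and -0.10 ± 0.0778 for Tapbp.

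Nlrc5 had 17.2, 61.0 and 110.3 normalized counts in treated old mice and 44.9, 112 and 687 in old controls. Treated F2, M1 and M3 lay below all controls, M1 by less than 1 count. The log2 fold change was -1.27 ± 0.598 (95% limits -2.56 to 0.02, limma adjusted p = 0.678), and -0.76 ± 0.46 without old M1. Erap1 had 225, 303 and 356 in treated old mice and 269, 350.2 and 469 in old controls (log2 fold change -0.26 ± 0.163). Treated F2 was the lowest of its group for Psmb8, Psmb10, Nlrc5 and Erap1.

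Of the 9 genes of class I heavy chains and B2m, 8 had negative estimates in treated old mice (median log2 fold change -0.46, 6 unadjusted, 0 called by limma). H2-Q7, low in reads, was at -1.10 ± 0.337 and H2-Q4 at -0.87 ± 0.271. H2-K1 was at -0.69 ± 0.256, H2-D1 at -0.46 ± 0.209 and B2m at -0.43 ± 0.181 (limma adjusted p = 0.678 for all of these). Of 12 interferon signalling genes 4 were positive, and 2 higher and 3 lower passed unadjusted. The higher ones were Jak2 at 0.22 ± 0.103 and Irf2 at 0.17 ± 0.0686, named after their values were seen. The lower ones included Irf9, a partner of STAT dimers, at -0.46 ± 0.181 and Stat2 at -0.26 ± 0.106. Irf1, at -0.45 ± 0.313, did not pass.

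The constitutive subunits Psmb5, Psmb6 and Psmb7 had log2 fold changes of -0.12 ± 0.0957, 0.02 ± 0.0534 and 0.13 ± 0.0746 in treated old mice. Of 11 other core subunits 10 were positive (median 0.03), with Psmb2 at -0.08 and Psma4 at 0.07, and of 18 subunits of the 19S particle 11 were positive, with Psmd7 at 0.12 and Adrm1 at -0.08. Among the assembly factors 3 of 8 were positive, with Psmg4 at -0.28 ± 0.135 and Psmg3 at -0.15. All 5 other loading and quality control genes were positive (median 0.10), with Uggt1, the glycan sensor, at 0.12 ± 0.0527 and the chaperone Canx at 0.10. Of 6 other peptidases 3 were positive, with Lap3 at -0.14 and Npepps at 0.08. Of the 6 partners of Nlrc5 2 were positive, with Rfx5 at -0.18 ± 0.0635 and Nfya at 0.16.

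Of the 8 microglial markers 5 had positive estimates in treated old mice (median 0.05), with sums of 327 to 401 CPM in treated mice against 340.2 to 469 CPM in old controls. Reads on the 9 T and NK markers summed to 2, 14.5 and 88 in treated old mice against 10, 24.5 and 115 in old controls. Treated old F1, with 88 reads, had the highest Tap2, Nlrc5 and Erap1 of its group. It ranked 2 in the group for Psmb8 and Tap1 and 4 for Psmb9. All 8 markers of hippocampal neurons were negative (median -0.56), with sums of 1297 to 2611 CPM in treated mice against 2262 to 2817 CPM in old controls, and all 5 striatal markers were positive (median 0.72). Their part in the result was not tested.

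Among APP/PS1 controls, none of the 10 genes passed a test against littermates. The comparison sets the amyloid transgenes against none at 4 months. Of the 10 genes 7 had positive estimates (median log2 fold change 0.02), against 50.3% of the 16475 genes tested. Limma called 0 of 10 (0.0486% of all genes) and 0 passed unadjusted (10.2% of all genes), edgeR called 0 (0.0486% of all genes) and DESeq2 0 (1.55% of all genes).

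Psmb8 had 51.0, 79.98 and 246 normalized counts in APP/PS1 and 48.2, 97.3 and 116 in littermate controls (log2 fold change 0.00 ± 0.365, 95% limits -0.79 to 0.79). Psmb9 had 14.2, 41.1 and 105 in APP/PS1 and 34.3, 43.6 and 80.8 in littermate controls (log2 fold change -0.25 ± 0.411). For both, APP/PS1 F3 stood above all other libraries of either group, and without it the log2 fold changes were -0.30 ± 0.286 for Psmb8 and -0.61 ± 0.308 for Psmb9. Tap1 had 96.7, 123 and 376 normalized counts in APP/PS1 and 135, 144 and 197 in littermate controls, with 4 APP/PS1 libraries below and 2 above all littermates (log2 fold change 0.01 ± 0.3, and -0.26 ± 0.218 without APP/PS1 F3).

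Erap1 had 288.5, 317 and 466 normalized counts in APP/PS1 and 193, 279.8 and 344 in littermate controls. The groups overlapped, with F3 alone above all littermates. Its log2 fold change was 0.31 ± 0.163 (limma adjusted p = 0.559), and 0.20 ± 0.148 without APP/PS1 F3. Nlrc5 had 20.3, 29.9 and 76.6 in APP/PS1 and 4.88, 28.7 and 41.3 in littermate controls (log2 fold change 0.56 ± 0.502, limma adjusted p = 0.754, and 0.30 ± 0.492 without APP/PS1 F3). Tap2, Tapbp and Psmb10 had log2 fold changes of -0.02 ± 0.193, 0.10 ± 0.118 and 0.03 ± 0.116, and Psme1 and Psme2 had -0.07 ± 0.11 and 0.08 ± 0.133.

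APP/PS1 F3 was the highest library of its group for 7 of the 10 genes and for microglial markers, at 659.5 CPM where the group had a median of 345 CPM and a lowest value of 281 CPM. It held 0 reads on the 9 T and NK markers. Of 8 microglial markers 6 had positive estimates in APP/PS1 mice (median 0.17, 0 unadjusted), and littermate controls summed to 298 to 354 CPM. Of 8 hippocampal neuron markers 7 were negative (median -0.72, 3 unadjusted), and all 5 striatal markers were positive (median 1.38). All 5 choroid plexus markers were negative (median -0.92, 3 unadjusted). The part of these markers in the values was not tested.

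Of 7 class I genes tested 5 were positive in APP/PS1 mice (median 0.04, 0 unadjusted), with H2-T23 at 0.36 ± 0.252, H2-D1 at -0.32 ± 0.342, B2m at 0.20 ± 0.215 and H2-K1 at 0.22 ± 0.305. Of 12 interferon signalling genes 6 were positive, Jak2 (0.19 ± 0.0701) and Tyk2 (-0.20 ± 0.0873) passed unadjusted, and Irf1 was at -0.14 ± 0.143. Psmb5, Psmb6 and Psmb7 had log2 fold changes of -0.07, 0.02 and -0.08. Of 11 other core subunits 5 were positive, with Psmb2, which passed unadjusted, at -0.16 ± 0.0579 and Psma4 at -0.14. Of 18 subunits of the 19S particle 11 were positive, with Psmd1 and Psmc4 at 0.11 each, and of 8 assembly factors and regulators 5 were, with Psmf1, an inhibitor of the core, at 0.21 ± 0.0824 and Psmg3 at -0.26. Psmb11, the thymic subunit, was at -2.28 ± 0.786 and passed unadjusted. It had 0 to 51 reads over the 35 libraries and was too low to be tested in the aging arm. Of 5 loading genes 3 were positive, with Calr at -0.12 and Canx at 0.10, of 6 peptidases 5 were, with Tpp2 at 0.08 and Thop1 at -0.07, and of 6 partners of Nlrc5 3 were, with Nfyb at -0.09 and Nfyc at 0.05. Limma called none of these genes.

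Among treated APP/PS1 mice, none of the 10 genes passed a test against APP/PS1 controls. The comparison sets nanoligomer against control in the amyloid model, with 5 treated and 6 control libraries, and it shares the 6 APP/PS1 controls with the comparison to littermates. Of the 10 genes 2 had positive estimates (median log2 fold change -0.10), against 49.4% of the 16124 genes tested. Limma called 0 of 10 (0% of all genes) and 0 passed unadjusted (2.96% of all genes), edgeR called 0 (0%) and DESeq2 0 (0.0425% of all genes).

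Nlrc5 had 17.0, 18.6, 21.6, 8.93 and 10.98 normalized counts in treated APP/PS1 F1, F2, M1, M2 and M3, against 15.3, 22.6 and 57.2 (lowest, median and highest library) in APP/PS1 controls. Treated M2 and M3 lay below all controls and the other 3 within their range. The log2 fold change was -0.72 ± 0.353 (95% limits -1.49 to 0.06, limma adjusted p = 0.997). Psmb9 had 30.02, 45.9, 32.7, 34.96 and 70.2 in the treated libraries in the same order and 10.7, 31.0 and 78.2 in APP/PS1 controls. All treated libraries lay within the range of the controls, with a log2 fold change of 0.44 ± 0.453, and 0.75 ± 0.347 without APP/PS1 F3 (limma adjusted p = 0.9915). Leaving out 1 library at a time gave 0.20 to 0.75. The lowest control was APP/PS1 F1, the library with few hippocampal and many striatal marker reads.

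Psmb8 had 67.2, 101, 34.7, 55.8 and 34.8 normalized counts in treated libraries and 38.6, 60.4 and 184 in APP/PS1 controls, with treated M1 and M3 below all controls (log2 fold change -0.20 ± 0.371). Tap1 had 121, 109.5, 100.2, 55.0 and 125 in treated libraries and 73.2, 92.6 and 281 in APP/PS1 controls, with treated M2 below all controls (log2 fold change -0.22 ± 0.365). The log2 fold changes of Tap2, Tapbp, Erap1 and Psmb10 were -0.115 ± 0.2095, -0.08 ± 0.135, -0.19 ± 0.204 and -0.06 ± 0.139, and those of Psme1 and Psme2 were 0.01 ± 0.133 and -0.03 ± 0.101.

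All 3 constitutive catalytic subunits had positive estimates in treated APP/PS1 mice, and 2 passed unadjusted: Psmb5 at 0.17 ± 0.0648 and Psmb7 at 0.16 ± 0.063, with Psmb6 at 0.03 ± 0.0589 (limma adjusted p = 0.997 each). Of the 11 other core subunits 9 were positive, with Psmb4 at 0.14 and Psmb2 at 0.11, and of 18 subunits of the 19S particle 13 were, with Psmc6 at 0.09 and Psmd6 at 0.11. Psmb11, with 0 to 51 reads over the 35 libraries, was at 1.71 ± 0.988. Of 8 assembly factors 5 were positive, with Psmg3 at 0.24 and Psmg2 at -0.15, and of 5 loading genes 1 was, with Canx at -0.08 and Pdia3 at -0.02. Of 6 peptidases 5 were positive, with Lnpep, which trims peptides in endosomes, at 0.23 ± 0.092 and Lap3 at -0.15.

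Of 7 class I genes tested 1 was positive in treated APP/PS1 mice (median -0.14), with B2m at -0.30 ± 0.2, H2-T23 at -0.33, H2-K1 at -0.16 and H2-D1 at -0.13. Of 12 interferon signalling genes 5 were positive, with Ifngr1, a chain of the receptor of interferon gamma, at -0.24 ± 0.125, Ifnar1 at -0.07 and Irf1 at 0.07. Of 6 partners of Nlrc5 3 were positive, with Nfya and Rfx5 at -0.19 each. All 5 choroid plexus markers had positive estimates (median 3.01, 4 unadjusted), with sums of 59.6 to 3821 CPM in treated mice against 16.4 to 52.8 CPM in APP/PS1 controls. Of 8 microglial markers 1 was positive (median -0.17), with sums of 293 to 336 CPM in treated mice against 281 to 659.5 CPM in APP/PS1 controls. All 5 striatal markers were negative (median -0.35), with sums of 37.55 to 495 CPM in treated mice against 45.9 to 1030 CPM in APP/PS1 controls. Their part in the values was not tested.

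Differences between effects were tested in joint limma fits of tables that share no library. The nanoligomer effect in old mice minus that in APP/PS1 mice was -1.42 ± 0.624 for Psmb9 (limma adjusted p = 0.918), the only one of the 10 with an unadjusted p under 0.05 (4.35% of all 15990 genes), and limma called 0% of all genes. The age effect minus the APP/PS1 effect was 1.25 ± 0.509 for Psmb8 (limma adjusted p = 0.361) and 1.38 ± 0.572 for Psmb9 (limma adjusted p = 0.367), and these 2 passed unadjusted, against 11.8% of all 16300 genes. Limma called 0 of the 10 and 0.0429% of all genes in that fit. Neither difference was tested with edgeR or DESeq2.

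The sexes were compared within each effect, and limma called 0 of the 40 differences (0% of all genes in each comparison), with 3 at an unadjusted p under 0.05. For Tap2 the log2 fold change of old against young controls was 1.07 ± 0.213 in males and 0.07 ± 0.213 in females, a difference of 0.996 ± 0.301 (limma adjusted p = 0.983, 4.39% of all genes unadjusted). In treated old mice against old controls Tap2 was at -0.62 ± 0.199 in males and 0.10 ± 0.199 in females, a difference of -0.72 ± 0.282 (limma adjusted p = 0.914, 4.71% of all genes unadjusted). These comparisons share the old controls, whose highest Tap2 value was that of old M1. For Nlrc5 the log2 fold change of APP/PS1 against littermate controls was -0.59 ± 0.567 in males and 1.71 ± 0.567 in females, a difference of -2.30 ± 0.803 (limma adjusted p = 0.847, 5.1% of all genes unadjusted). Its lowest female littermate value rested on the 5 reads of littermate F1. In treated APP/PS1 mice against their controls 0 of the 10 differed between the sexes at an unadjusted p under 0.05 with limma (4.52% of all genes).

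Deviations of log2 CPM from the mean of the group and sex, over 35 libraries, gave a median Pearson r of 0.45 over the 45 pairs of the 10 genes (range -0.50 to 0.74). The median was 0.27 over the 33 libraries without old M1 and APP/PS1 F3, which were left out after seeing the data. Over the 9 pairs of each gene, the median was 0.55 for Tap1, 0.54 for Psmb8 and for Tap2, 0.52 for Psmb9, Tapbp and Nlrc5, 0.44 for Psme1, 0.43 for Erap1 and 0.27 for Psme2. That of Psmb10 was 0.01. The points share the tissue, depth and composition of a library, and the values are a description.

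The mean of the members was set beside 13484 other genes with a mean of at least 50 counts, without predicted-gene, clone and Rik symbols. Among the 10 most like it were Gbp2 (r = 0.88), Irgm1 (0.85), H2-K1 (0.85), Irf8 (0.84) and Bst2 (0.84), over 35 libraries. Gbp6 (0.84), Gbp3 (0.83), H2-Q4 (0.82) and Ifitm3 (0.82) were also among them. The median r over all compared genes was 0.06 and the 90th percentile 0.39. Gbp2, Gbp3 and Gbp6 encode guanylate-binding GTPases, Irgm1 an immunity-related GTPase, Bst2 tetherin and Ifitm3 an antiviral membrane protein. Without old M1 and APP/PS1 F3, r lay between 0.61 for Irgm1 and 0.85 for Ifitm3.

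**Figure D5:**
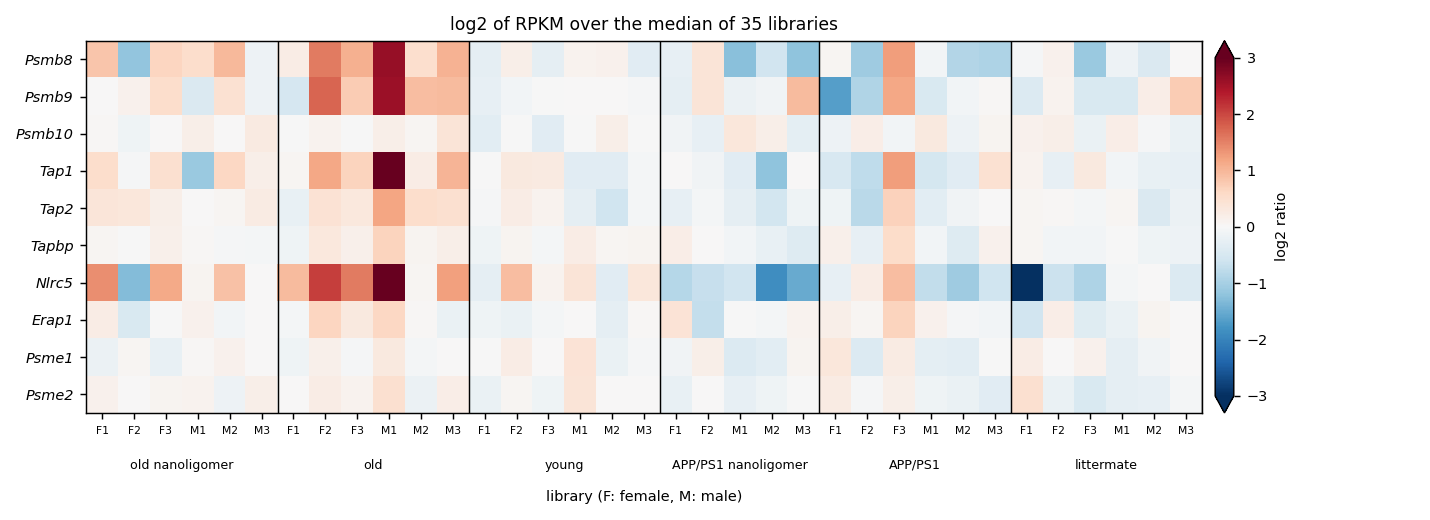
log2 of RPKM over the median of 35 libraries (colour, from -3 to 3) for each gene (rows) and library (columns), by group. Old M1 is the strongest red column for Psmb8, Psmb9, Tap1 and Nlrc5, littermate F1 is the deepest blue cell (Nlrc5, 5 reads), and the row of Psmb10 is pale throughout.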

How the data were processed

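Polyadenylated RNA of hippocampus was sequenced on an Illumina NovaSeq from TruSeq libraries, per the labels' protocols. STAR, DESeq2 and mm10 are named per the submitters' processing notes, and the sources used here state neither versions nor the counting tool and its strand setting. The deposited values form a signal: counts that were divided by a size factor per library, in 4 tables of 12 libraries and 24421 symbols, each table scaled on its own. Whole reads were recovered from the common step of each library (100% of values whole within 0.001 reads). Reads of the 12 libraries in 2 tables were identical, and 0 value columns were left out. The column of treated APP/PS1 M3 differs from its library title by 1 letter and was matched because no other column of its group remained. CPM and RPKM were computed from recovered reads and the length of all GENCODE exons of a gene, merged over transcripts, for the level of each gene.

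Each comparison was tested in its own table with limma 3.58.1 in R 4.3.3 (intensity trend, sex and group terms) on log2(normalized count + 1), keeping genes whose mean was 10 or more. P-values were Benjamini-Hochberg adjusted over all genes and called under 0.05. A fold change on this scale can understate that of low genes, but did not always do so. For Nlrc5 in APP/PS1 against littermate controls the log2 fold change was 0.56 with limma, 0.4705 with edgeR and 0.4749 with DESeq2. Recovered counts were also tested with edgeR 4.0.16 and DESeq2 1.42.0. The limma fit was tested on simulated data. The members, the pathway and marker lists and the tests were chosen with earlier results of these data known. The 10 members were named in every comparison, with up to 4 called genes of each pathway list or else the 2 with the smallest p, and Irf1, B2m, H2-K1, H2-D1, Psmb5, Psmb6 and Psmb7. Other filters, pseudocounts, scalings, models, tools and the loss of each library were tried, and DESeq2 without old M1 and the likeness without old M1 and APP/PS1 F3 were chosen after seeing the data. Treated APP/PS1 F3 was left out for its depth, and results of 1 gene that these rules name are not reported here.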

Additional observations from a re-analysis of the deposited data

Results flagged for a closer look

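A single library stood apart from its group, by Dixon's gap ratio at 95%, in 8 of the 60 sets of RPKM values formed by 10 genes and 6 groups. Chance flags about 5% of independent sets of normal values. The sets here are not independent, since the 10 genes were measured in the same libraries. Old M1 stood above the other old controls for Psmb8 (5.21 RPKM), Tap1 (6.53 RPKM) and Nlrc5 (2.17 RPKM). APP/PS1 F3 stood above the other APP/PS1 controls for Psmb8 (2.02 RPKM), Psmb9 (0.793 RPKM) and Erap1 (1.77 RPKM). Littermate F1 stood above its group for Psme2 (11.2 RPKM). Young F1 stood below its group for Psmb9 (0.301 RPKM), where the other young libraries lay within 0.337 to 0.358 RPKM.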

How the results depend on the processing

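Of 976 values for the 10 genes under an alternative, 917 kept their direction and their side of the threshold, 4 passed it only there, and 55 changed sign. In old against young controls DESeq2 called 3 of the 10 genes where limma called 0, and 1 without old M1; the cause was not tested. Over all genes DESeq2 called 123 where limma called 6 in old against young controls, 2 against 0 in treated old mice, 256 against 8 in APP/PS1 against littermate controls and 7 against 0 in treated APP/PS1 mice. Array weights called 14 genes in old against young and 548 in APP/PS1 against littermate controls, and limma without APP/PS1 F3 called 256 there and 21 without APP/PS1 F1. The sign changes were all of estimates that limma did not call, and their cause was not tested. In APP/PS1 against littermate controls Psmb8 was at -0.0013 with TMM scaling, -0.0035 with scaling by total reads and -0.20 with array weights, Tap1 at -0.084 and Nlrc5 at -0.033 with array weights, and Tap2 at 0.034 with edgeR and 0.035 with DESeq2. In treated APP/PS1 mice Psmb10 was at 0.030 and Psme1 at -0.043 with array weights, and Psme1 at -0.0091 with scaling by total reads and -0.012 without a sex term. With the library of 0.913 M reads Psmb9 was at -0.43, Nlrc5 at 0.29, Psme1 at -1.59 and Psme2 at 0.27. Leaving out 1 library at a time gave -0.064 to 0.042 for Psme1 in old against young controls. In APP/PS1 against littermate controls it gave -0.30 to 0.20 for Psmb8, -0.61 to 0.012 for Psmb9, -0.026 to 0.086 for Psmb10, -0.26 to 0.18 for Tap1, -0.18 to 0.14 for Tap2, -0.00051 to 0.17 for Tapbp, -0.11 to 0.024 for Psme1 and -0.012 to 0.19 for Psme2. In treated APP/PS1 mice it gave -0.43 to 0.015 for Psmb8, -0.14 to 0.025 for Psmb10, -0.37 to 0.014 for Tap1, -0.25 to 0.032 for Tap2, -0.33 to 0.056 for Erap1, -0.073 to 0.054 for Psme1 and -0.083 to 0.033 for Psme2. The deviations of same-numbered libraries had r from -0.34 to 0.33, which cannot tell whether the numbers pair the samples. With the replicate block limma called 0 of the 10 genes in each comparison, and over all genes 1 in old against young controls, 0 in treated old mice, 10 in APP/PS1 against littermate controls and 0 in treated APP/PS1 mice. In the last, where APP/PS1 F3 has no partner, the block gave 0.015 for Psmb8, 0.014 for Tap1 and 0.032 for Tap2. Of the 10 genes, low reads limit Nlrc5 most, with 5 to 45 reads in the lowest library of each group.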

Other observations

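The arms differed in the level of some class I genes. These values belong to no comparison of the design, since age, library set and possibly strain differ between the arms. H2-D1 averaged 9.59 ± 0.737 RPKM in young C57BL/6 and 4.43 ± 0.967 RPKM in littermate controls (SD, n = 6 each), with a lowest and highest value of 8.39 and 10.3 RPKM in young and of 3.11 and 5.38 RPKM in littermate controls. H2-K1 averaged 8.61 ± 0.636 RPKM in young and 5.99 ± 1.11 RPKM in littermate controls. B2m, their light chain, averaged 120 ± 7.68 RPKM in young and 98.7 ± 20.4 RPKM in littermate controls, with overlapping ranges.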
